A study of Mus musculus with 24 samples.

Results

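The STAU2 RIP against input comparison at embryonic day 13.5 (E13.5) of the mouse cortex comprised 5871 peaks, 2627 on the plus strand and 3244 on the minus strand, out of 29007 peaks over the 4 days of the series. The members were all regions in the authors' 2 deposited lists of that day, 1 list for each strand. The 2 groups behind them were STAU2 RIP, RNA recovered from E13.5 cortical lysate with a mouse monoclonal antibody against STAU2, with 3 libraries, and input, RNA of the same kind of lysate without the precipitation, also with 3 libraries. Per the labels, the cortices of a whole litter were pooled for each biological replicate, so no value belongs to a single embryo. Strain and genotype are not named in the labels. Control RIPs against T7 were measured by qPCR only, per the labels, and were not analysed here. The lists of E11.5 (6530 peaks), E15.5 (10265 peaks) and E17.5 (6341 peaks) were used for comparison.

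The authors gave each peak a p-value and a q-value, and every q at E13.5 was below 0.01. From the relation of q to p, 30493 candidate regions stood behind the E13.5 lists, of which 19.3% were listed, 17.8% on the plus strand and 20.6% on the minus strand. Each day and strand has a single list and no library has values of its own, so the spread between the 3 RIP and the 3 input libraries, and their depth, are unknown. No test between groups could be run, and the shares below carry exact Clopper-Pearson 95% intervals that cover counting error of peaks only. The lists do not say whether the authors' test was one-sided, so a listed peak is a region that differed between STAU2 RIP and input by their test, not a region shown to be higher in the RIP. Rank means the order of the authors' p within E13.5 over both strands. Signal means a positive value per peak that the authors deposited without naming its unit, and values of different days are on no stated common scale.

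STAU2 belongs to the Staufen family, whose members bind double-stranded RNA. In neurons it is found in RNA granules that travel along microtubules into dendrites, and in the embryonic cortex it is known to be partitioned unequally when radial glia divide. Targets of Staufen proteins are known from 3' untranslated regions (3' UTRs), coding sequences (CDS) and introns. At E13.5 the mouse cortex holds dividing radial glia beside the ventricle, intermediate progenitors and the first layers of young neurons.

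The sequences of the best-ranked exonic peaks show the kind of RNA the lists hold. They are given 5' to 3' in the transcript's sense from GENCODE vM21 transcripts on mm10 (GRCm38), and capitals mark bases that were paired in the minimum free energy structure of the peak as folded by RNAfold. The first set holds whole peaks in coding sequence. They lie in Kat6b (chr14:21670197-21670249, plus strand), Mki67 (chr7:135697216-135697425, minus strand), Rnf130 (chr11:50052853-50052915, plus strand) and Wdr62 (chr7:30241309-30241358, minus strand).
Kat6b: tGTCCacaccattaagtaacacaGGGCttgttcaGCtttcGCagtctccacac
Mki67: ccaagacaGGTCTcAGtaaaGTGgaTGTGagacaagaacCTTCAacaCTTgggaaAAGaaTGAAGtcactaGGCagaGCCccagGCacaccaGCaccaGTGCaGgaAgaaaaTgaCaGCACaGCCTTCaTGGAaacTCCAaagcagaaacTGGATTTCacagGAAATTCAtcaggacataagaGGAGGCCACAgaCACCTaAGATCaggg
Rnf130: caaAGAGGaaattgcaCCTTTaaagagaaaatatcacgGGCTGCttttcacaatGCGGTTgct
Wdr62: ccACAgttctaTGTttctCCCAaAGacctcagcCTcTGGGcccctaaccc
The second set holds the middle 30 bases of 3' UTR peaks, with capitals from the fold of the whole peak. They lie at chr19:47735395-47735424 (Sfr1, plus strand), chr14:65397928-65397957 (Zfp395, plus strand), chr9:46202330-46202359 (Sik3, plus strand), chr15:83153671-83153700 (Cyb5r3, minus strand), chr5:124005553-124005582 (Vps37b, minus strand), chr5:13600477-13600506 (Sema3a, plus strand) and chr1:16344869-16344898 (Stau2, minus strand).
Sfr1: gaaagTAGTATgtTGAATGTctaaatctca
Zfp395: cgcaCCAgacagaaaagggagagagaaaag
Sik3: cttccttgtccccgcgttcATATTGCaact
Cyb5r3: TTGGGGgtCCctGGCttatctctccacccC
Vps37b: aagaagAAAAAAAGatactcaatgtttTTA
Sema3a: atctaaGTTaACTctcACATacataATGTt
Stau2: agctTCtTTCCCacttatTCTTGTTcccTT
The third set holds 1 peak on a processed pseudogene, Kansl2-ps (chr7:72673296-72673383, plus strand), and 1 coding peak that lay under a peak on each of the other 3 days, in the LIM homeobox gene Lhx2 (chr2:38369092-38369144, plus strand).
Kansl2-ps: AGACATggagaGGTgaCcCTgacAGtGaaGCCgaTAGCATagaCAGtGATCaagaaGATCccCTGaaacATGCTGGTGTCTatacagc
Lhx2: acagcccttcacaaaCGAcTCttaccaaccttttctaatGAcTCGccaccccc
The share of paired bases in these folds differed widely. It was 61.7% over the whole Cyb5r3 peak and 59.4% over the Vps37b peak, against 22.6% over the Kat6b peak and 18.9% over the Lhx2 peak. The Cyb5r3 and Vps37b peaks were 120 and 239 nt long, and the Kat6b and Lhx2 peaks 53 nt each. The part of length in these shares was not tested.

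Read at the midpoint of each peak on its own strand, 2016 of the 5871 peaks lay in introns (34.3%, 95% interval 33.1-35.6), 1685 in 3' UTRs (28.7%, 27.5-29.9) and 1142 in CDS (19.5%, 18.4-20.5). Noncoding exons held 420 peaks (7.15%). These are exons of noncoding genes, or exons used only by isoforms of coding genes not annotated as protein-coding. The antisense strand of a gene held 279 (4.75%), regions outside genes 277 (4.72%) and 5' UTRs 52 (0.886%). Set beside the other days without a test, 3' UTRs held 17.4% of the E11.5 peaks, 28.7% of those of E13.5, then 36.4% (E15.5) and 35.6% (E17.5). For introns the series was 48.8%, 34.3%, 27.7% and 27.5%, and the CDS share stayed between 17.8% and 20.3%. E13.5 thus lay between E11.5 and the later days in 3' UTRs and, with all peaks counted, in introns. Without the intronic peaks of the 20 genes that held most of them, the E13.5 intronic share was 24.5%, below both later days. The other days were not recomputed in that way, so the order in introns depends on these genes. Of the 3064 peaks on protein-coding exons whose midpoint was also exonic, 1685 were 3' UTR peaks (55.0%, 53.2-56.8) and 1142 CDS peaks (37.3%, 35.6-39.0). That 3' UTR share was 42.6% when any base in CDS made a peak a CDS peak.

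**Figure D1:**
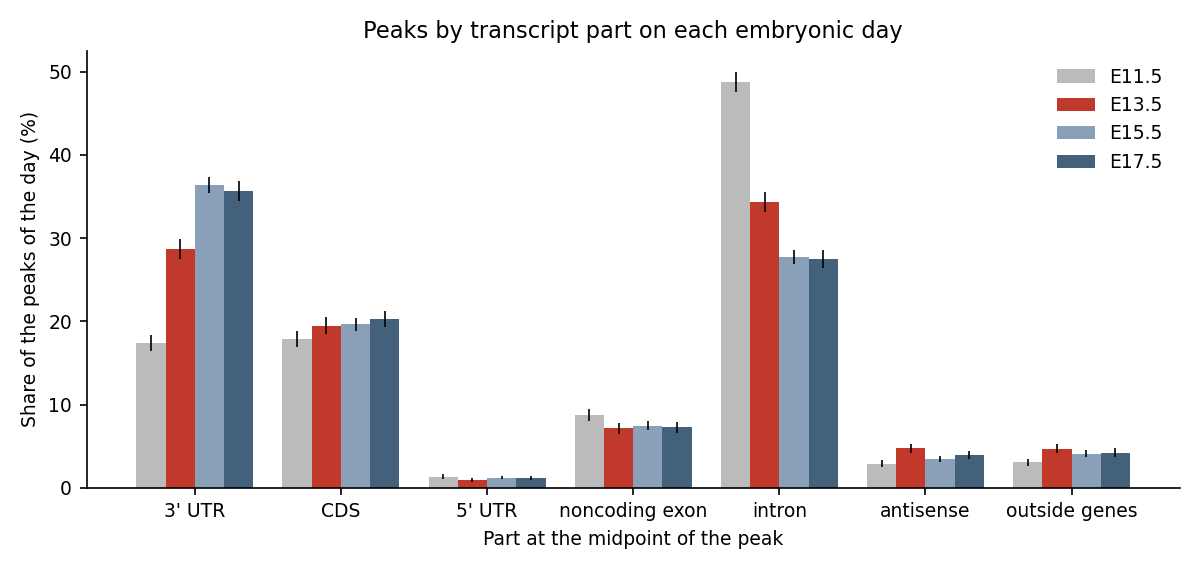
Share of the peaks of each day (vertical axis, %) by transcript part at the midpoint of the peak (horizontal axis), with the 4 days in time order. Bars are shares of 1 list pair per day, and lines are exact 95% intervals for counting error of peaks. At E13.5 introns held 34.3% and 3' UTRs 28.7%, between the shares of E11.5 and of the later days. Without the 20 genes with most intronic peaks the E13.5 intronic share was 24.5%, and the other days were not recomputed in that way.

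Signal differed between parts. The median signal was 32.0 in CDS, 31.9 in 5' UTRs, 30.1 in noncoding exons and 26.1 in 3' UTRs, against 16.2 outside genes, 14.4 in introns and 5.83 on antisense strands. The 20 genes with most intronic peaks held 763 of the 2016, often with close or equal signals, and each peak was counted singly. Of the 100 best-ranked peaks, 50 lay in introns, 25 in 3' UTRs and 11 in CDS. Some of the 100 were tied, such as the intronic Sbf2 peak at rank 16, 1 of 7 with the same values. The first 1000 ranks held 344 intronic, 312 3' UTR and 169 CDS peaks. The shares of these parts among all peaks were 34.3%, 28.7% and 19.5%. Signals above 1000 were given to 46 peaks, 13 of them outside genes and 10 in noncoding exons. The highest of all, 163391, belonged to a noncoding exon of the predicted gene Gm42418 (chr17:39847441-39847551). Among exonic peaks of coding genes the highest signals were 4908 in the 3' UTR of Nnat, which encodes a small membrane proteolipid of the developing brain, and 4097 in the CDS of Hnrnpa2b1, which encodes a splicing and RNA-transport protein. Their ranks were 2407 and 2726. Across the 5871 peaks Spearman's rho between the authors' p and signal was 0.015, given as a description. The 3 genes named here for their signal were chosen after their values were seen.

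**Figure D2:**
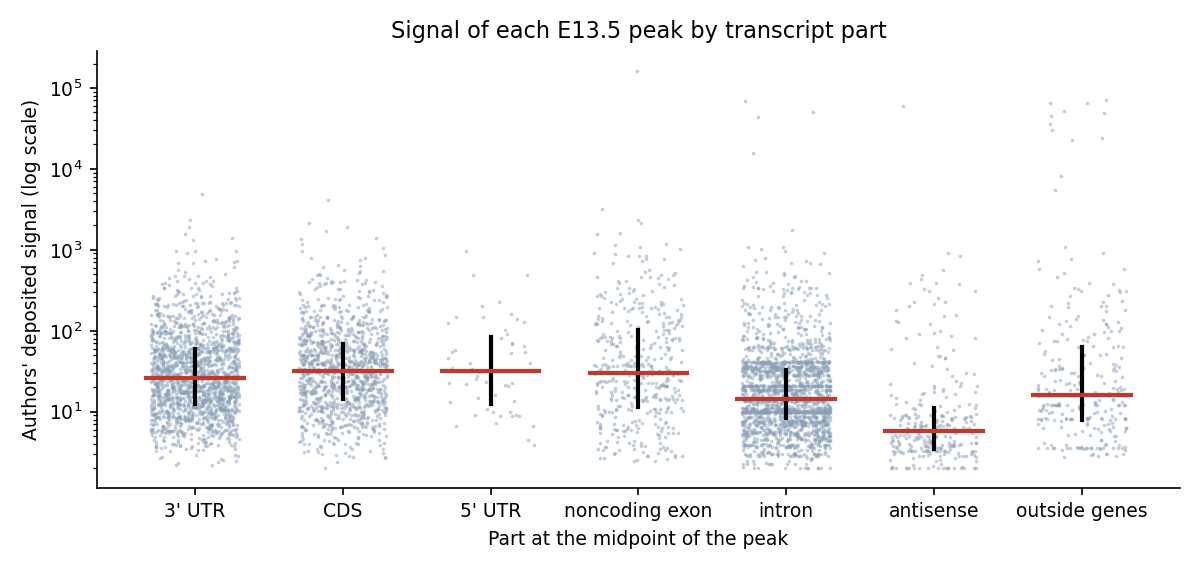
Signal deposited by the authors for each E13.5 peak (vertical axis, log scale, unit not stated) by transcript part at the midpoint of the peak (horizontal axis). Each point is a peak, the red line is the median and the black line spans the quartiles. Medians were 32.0 in CDS and 26.1 in 3' UTRs, against 14.4 in introns and 5.83 on antisense strands.

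The best-ranked 3' UTR peaks lay in genes of unlike function. Sfr1, a partner of Swi5 in DNA repair by homologous recombination, carried the best-ranked exonic peak of the day (chr19:47735344-47735476, 133 bp, signal 32.3, p = 1.61e-07 and q = 0.00237 in the authors' deposited list). Zfp395, a zinc finger gene, followed at rank 11 (chr14:65397905-65397981, the authors' deposited p = 3.28e-06), and Sik3, a salt-inducible kinase gene, at rank 13 (chr9:46202320-46202369, the authors' deposited p = 3.59e-06). Their signals, 3.50 and 4.53, were among the lower ones in the part, whose quartiles were 12.6 and 58.7. Cyb5r3, which encodes a cytochrome b5 reductase, stood at rank 27 with a signal of 19.05 (chr15:83153626-83153745), and Vps37b, a subunit gene of the ESCRT-I complex of endosomal sorting, at rank 28 with a signal of 33.2 (chr5:124005448-124005686). The sialyltransferase gene St3gal1 came next at rank 29 (chr15:67103222-67103419). Exonic peaks of Sfr1 and Cyb5r3 were listed on all 4 days, those of Vps37b and St3gal1 on each day from E13.5, those of Sik3 at E13.5 and E15.5, and those of Zfp395 at E11.5 and E13.5.

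Peaks in 3' UTRs were spread along the region rather than gathered at either end. For the 1669 that lay within 1 exon of a coding transcript, the midpoint was a median of 612 nt past the stop codon (quartiles 231 and 1263) and 590 nt from the transcript end (287 and 1164), in 3' UTRs with a median length of 1464 nt. The successive 20% stretches from stop codon to transcript end held 353, 352, 329, 361 and 274 peaks, and the last share, 16.4% (14.7-18.3), was the lowest. Within 200 nt of the stop codon lay 367 peaks (22.0%), and within 200 nt of the annotated end 251 (15.0%).

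In coding sequence the peaks leaned to the 3' side. Kat6b, a histone acetyltransferase gene, had the best-ranked CDS peak (chr14:21670197-21670249, rank 6, signal 57.3, the authors' deposited p = 1.04e-06). The proliferation marker gene Mki67 had its best-ranked at rank 41 with a signal of 112 (chr7:135697216-135697425). The ubiquitin ligase gene Rnf130 stood at rank 43 (chr11:50052853-50052915). Of 1026 CDS peaks within 1 exon, 97 lay in the first 20% of the coding sequence (9.45%, 7.73-11.4), then 156, 168 and 232, and 373 lay in the last 20% (36.4%, 33.4-39.4). The requirement of 1 exon favours long exons. Placed by the midpoint alone, an alternative chosen after seeing the data, 397 of 1142 lay in the last 20% (34.8%) and 113 in the first (9.89%).

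**Figure D3:**
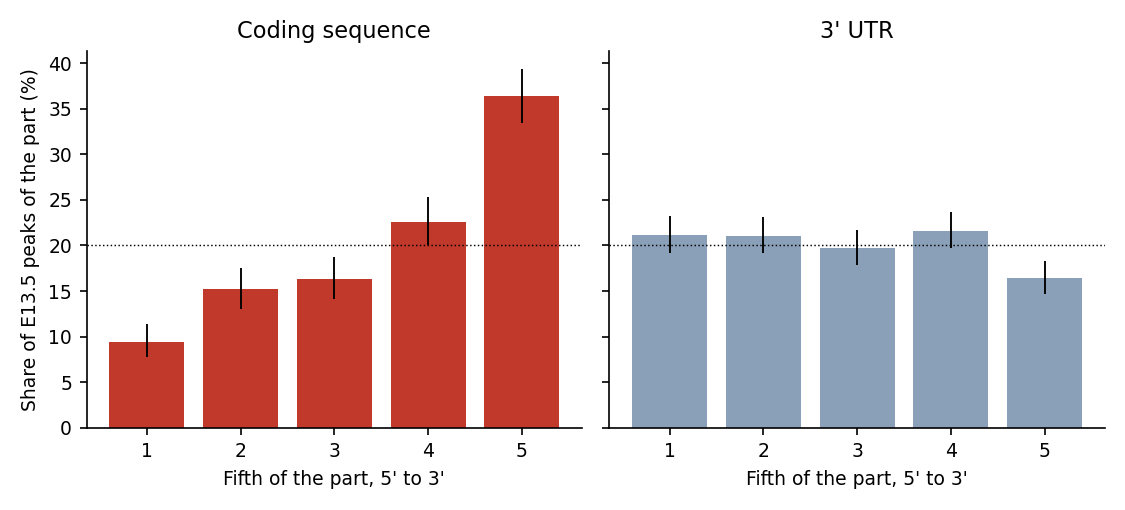
Share of E13.5 peaks (vertical axis, %) in 5 equal stretches of the coding sequence (left) and of the 3' UTR (right), 5' to 3' along the horizontal axis. Bars are shares over 1026 CDS and 1669 3' UTR peaks, lines are exact 95% intervals for counting error, and the dotted line marks 20%. CDS shares climb to 36.4% in the last stretch, while 3' UTR shares stay between 16.4% and 21.6%.

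Peaks in 5' UTRs were few. Supt20, a gene of the SAGA transcription coactivator complex, had the best-ranked (chr3:54717051-54717176, rank 75, signal 67.9), and the ubiquitin ligase gene Rnf122 came second (chr8:31111901-31112026, rank 243). Eif2ak4, which encodes the amino-acid-sensing kinase GCN2, had a wide one (chr2:118400640-118401584, rank 852), ahead of Nr2c2ap (rank 1090) and BC024978 (rank 1225). Only 3 of the 52 were among the first 1000 ranks.

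Among the 420 peaks in noncoding exons, 183 lay in exons of protein-coding genes used only by isoforms not annotated as protein-coding. Some such isoforms may have an annotated CDS. Of the 420, 149 lay on processed pseudogenes, reverse-transcribed copies of mRNAs, and 22 on lincRNAs. The best-ranked were on the pseudogenes Kansl2-ps (rank 4, signal 192), Gm6180 (chr8:42247180-42247344, rank 8, signal 1193), Tdg-ps (chr15:82518762-82518861, rank 48) and Gm5912 (chr8:95578845-95578912, rank 64), followed by a noncoding exon of Bicra (rank 96). Such copies share reads with their parent genes, so their assignment is uncertain. Of 119 processed pseudogene peaks within 1 exon, 118 shared at least 1 word of 25 bases with the longest transcript of a coding gene, and 103 shared at least 50% of their words. The Kansl2-ps peak shared 100% of its words with Kansl2, a subunit gene of a histone acetyltransferase complex, the Gm6180 peak 82.3% with the actin-severing gene Cfl1, and the Tdg-ps peak 46.1% with the DNA repair gene Tdg. For 79 of the 118, the matching coding gene had an exonic peak of its own at E13.5. Over all protein-coding genes, of every tissue, the share was 11.8%. The matched genes were found through these same peaks and may share reads with them, so the comparison cannot measure an excess. The 79 are peaks, not genes, and some coding genes were matched repeatedly, such as Gm6793, Dnaja1 and Pabpc1.

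Intronic peaks were gathered in few genes. Of the 703 genes with one, 487 had a single peak, while the 20 densest held 763 of the 2016 (37.8%). Xpo7, which encodes a nuclear export receptor, held 182 intronic peaks over 75024 bp of chromosome 14, against 4 at E11.5 and 0 at E15.5 and E17.5. Taf3, a subunit gene of the transcription factor TFIID, held 58, the sulfotransferase gene Chst8 57, the kinase gene Map4k3 48, Lzts1 48 and the septin gene Sept7 42, and none of these 5 genes had an intronic peak on another day. The histone variant gene H2afy2 had 36, the nuclear exonuclease gene Xrn2 34, Zmym4 31 and the mitochondrial ribosomal protein gene Mrps35 26. Zmym4 had 2 intronic peaks at E11.5 and 9 at E15.5.

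Peaks of such a gene often carried the same or close values. In Xpo7 the 182 peaks carried 43 different signals and 114 different pairs of signal and p, and in Chst8 57 peaks carried 5 signals between 18.8 and 19.1 and 15 such pairs. In Lzts1 all 48 peaks had a pair of their own, with signals between 14.35 and 14.65. Over the day, 556 peaks (9.47%) shared strand, signal and p with at least 1 other peak, in 121 sets of up to 37, and 389 of these were intronic peaks that shared the values within 1 gene. With peaks of the same gene, signal and p counted once, the intronic share was 31.1%, and without the intronic peaks of the 20 densest genes it was 24.5%. The best-ranked single intronic peaks were in the phospholipase gene Ddhd2 (chr8:25737517-25737726, rank 5), the kinase gene Taok3 (chr5:117263770-117265930, rank 7), the coactivator gene Pprc1 (chr19:46065782-46065886, rank 9), the transcription elongation gene Supt5 (chr7:28316057-28316440, rank 10) and P4htm (chr9:108581027-108581317, rank 12). Those of Taok3 and Supt5 also touched an exon. Unspliced RNA and RNA from unannotated exons cannot be told apart in these lists.

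Antisense peaks had the lowest median signal of the parts, with 1 above 1000, and 9 of the 279 faced a peak of the other strand. The best-ranked were opposite Gng2 (chr14:19875406-19875456, rank 57), Txnrd1 (chr10:82890467-82890514, rank 84), Crot (chr5:8972139-8972222, rank 181) and the predicted gene Gm7895 (rank 182). The next lay opposite Stau1, which encodes the other Staufen protein (chr2:166950183-166950231, rank 210, signal 3.00). Of the 277 peaks outside genes, 76 (27.4%) began within 1000 bp downstream of the end of a gene on the same strand. Many of the 277 were gathered at chr6:47652710-47775891, in sets with the same values, such as a signal of 12.2 at rank 324. Others were gathered at chr8:20424809-20563876 with signals from 3.54 to 4.41. All were counted singly in the shares and medians of this part. The best-ranked peak of the whole day was outside genes on chromosome 18 (chr18:54699144-54699376, minus strand, signal 35686, the authors' deposited p = 5.43e-08), 69008 bp past the nearest upstream gene. The next outside genes were chr9:63899374-63899453 (rank 3), chr2:170462999-170463100 (rank 33), chr18:68692083-68692296 (rank 36, signal 48388) and chr15:86195164-86195260 (rank 49, signal 64156). Of these, the peak on chromosome 9 lay 572 bp and that on chromosome 2 414 bp past a processed pseudogene.

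Most peaks were short. The median width was 81 bp (quartiles 52 and 155) and 1295 peaks (22.1%) were at most 50 bp, while 67 were over 5000 bp and held 51.4% of all covered bases. The 3 widest lay outside genes on chromosome 4 (chr4:41773927-41894575, 120649 bp, chr4:42232178-42349236, 117059 bp, and chr4:42349289-42439656, 90368 bp). They were followed by chr17:6528589-6614101 (85513 bp) in the predicted gene Gm29721 and by chr17:6452508-6525647 (73140 bp) opposite Gm26848.

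At gene level, 3659 peaks shared bases with protein-coding exons, 2919 of them with all their bases, and they reached 2582 of 21951 protein-coding genes (11.8%). A single exonic peak was found in 1815 of these genes (70.3%), 2 in 534, 3 in 151 and 4 or more in 82. For 1284 genes the best-ranked peak lay in the 3' UTR (49.7%) and for 783 in CDS (30.3%). Peaks over 5000 bp alone reached 39 of the genes. Genes with a peak had somewhat longer transcripts, with a median of 2906 nt for the longest coding transcript (quartiles 1876 and 4497), against 2546 nt over all protein-coding genes (1499 and 4016). Levels of RNA in the input were not in the lists, so how expression bears on which genes were listed was not tested.

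The gene with most exonic peaks was Mki67, with 14, of which 12 were in CDS, with signals from 15.3 to 153. The RNA exosome gene Exosc7 had 13, 12 of them in noncoding exons with signals between 29.9 and 32.2, and Sept7 had 11, all in noncoding exons with signals between 36.1 and 38.4, close to the 36.1 to 36.8 of its 42 intronic peaks in the same stretch. Ankrd11, which encodes a chromatin-associated repeat protein, had 10 of its 11 in CDS. Bicra, a subunit gene of BAF-type remodelling complexes, had 11, of which 7 were in noncoding exons. The splicing scaffold gene Srrm2 had 9, 6 of them in CDS, and the corepressor gene Atn1 had 9. The readthrough model Gm45234 shares peaks with Atn1 and was not counted as separate evidence. Csnk2a2, a casein kinase subunit gene, differed from these with 8 of its 9 peaks in the 3' UTR. Lzts1 had 8 with signals between 14.36 and 14.65, within the range of its 48 intronic peaks, and 6 of the 8 had their midpoint in an intron.

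Of the 2582 genes, 502 (19.4%, 17.9-21.0) had an exonic peak at E13.5 and in no list of another day, 828 on 1 other day, 863 on 2 and 389 on all 4 days. E13.5 shared 852 genes with E11.5 (33% of the E13.5 genes and 42.7% of the E11.5 genes), 1707 with E15.5 (66.1% and 39.1%) and 1162 with E17.5 (45.0% and 39.1%). The lists differ in length, and absence from a list does not show absence of binding. Of the 502, 35 had a peak elsewhere in the gene body on another day, which leaves 467. At E13.5 the 502 genes had a median signal of 13.9 at their best-ranked peak (quartiles 7.49 and 31.2), against 30.7 (14.5 and 68.9) in the 2080 genes also listed on another day. Their median rank was 2662, against 2444, and 88.6% had a single peak, against 65.9%. Of their best-ranked peaks in coding transcripts, 65.4% were in the 3' UTR (60.6-70.1, n = 405), against 60.05% (57.7-62.4, n = 1697). Their 3' UTRs had a median length of 959 nt, against 932 nt.

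The best-ranked genes listed at E13.5 only were led by Rnf130 and by Sema3a, a secreted semaphorin that repels axons (chr5:13600466-13600518, 3' UTR, rank 52, signal 41.3, the authors' deposited p = 9.09e-06). Paqr3, a Golgi membrane protein gene (chr5:97102691-97102740, 3' UTR, rank 59), and Wdr62, a spindle pole gene whose loss is known to give microcephaly (CDS, rank 81), came next. Behind them stood Cd248, a surface protein gene of pericytes and fibroblasts (chr19:5069673-5070062, CDS, rank 99), Gnpat, of ether lipid synthesis (3' UTR, rank 100), Cactin (CDS, rank 101), the actin cross-linker gene Actn1 (3' UTR, rank 118) and Ddhd2 (rank 124). Sparc, a matrix protein gene, had a signal of 139 (chr11:55394563-55394723, 3' UTR, rank 126). The last of the 15 were Ccdc91 (CDS, rank 127), the elastin cross-linking gene Loxl1 (3' UTR, rank 151), the Polycomb gene Phc3 (rank 158), the coactivator gene Mrtfb (CDS, rank 174) and the mitochondrial topoisomerase gene Top1mt (CDS, rank 195). Cd248, Sparc and Loxl1 are known as genes of connective tissue or vessel cells. Of the 20 vessel and meninges genes examined, 9 had an exonic peak at E13.5, against 2 (E11.5), 3 (E15.5) and 0 (E17.5), while the lists of all 4 days held none for the 8 blood genes. Over all protein-coding genes the numbers were 2582 at E13.5, against 1995 at E11.5, 4365 at E15.5 and 2975 at the last day. The planned vessel and meninges markers Cldn5, Pecam1, Kdr, Pdgfrb and Lum were not among the 9. The part of connective tissue or vessel cells in the genes listed at E13.5 only was not tested.

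Single positions recurred less often than genes. Of the 5871 peaks, 1600 (27.3%, 26.1-28.4) shared at least 1 bp with a peak of another day on the same strand, and 19.98% were covered over at least 50% of their bases. The overlap was 8.43% with E11.5 peaks (9.33% of the E11.5 list), 16.9% with E15.5 peaks (9.58% of that list) and 11.4% with E17.5 peaks (10.5% of that list). By part, 40.4% of 3' UTR peaks (38.0-42.7) and 36.6% of CDS peaks (33.8-39.5) were overlapped, against 11.9% of intronic (10.5-13.4) and 9.68% of antisense peaks (6.47-13.8). The 2016 intronic peaks include 763 of the 20 densest genes, and the overlap without these was not computed. Among them 389 shared their values within 1 gene and were counted singly, which the interval does not allow for.

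**Figure D4:**
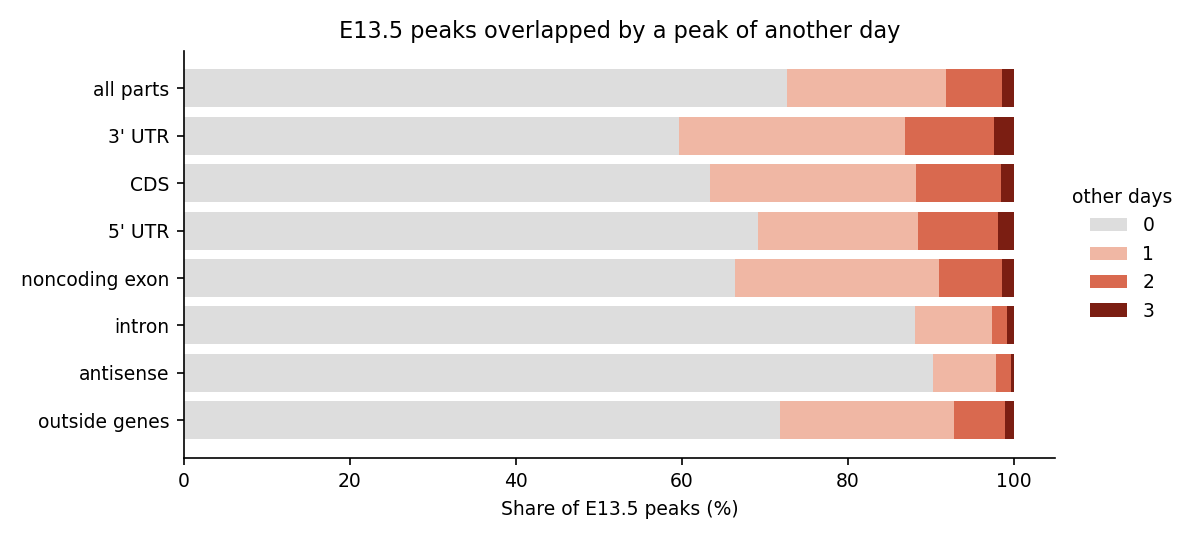
Share of E13.5 peaks (horizontal axis, %) that shared at least 1 bp with a peak of 0, 1, 2 or 3 of the other days, for all parts and by part at the midpoint (vertical axis). The bars are shares of 1 list pair. No overlap was found for 72.7% of all peaks, 59.6% of 3' UTR peaks and 88.1% of intronic peaks. The intronic peaks include those of the 20 densest genes, counted singly.

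A peak on each of the other 3 days lay under 84 of the E13.5 peaks, 40 of them in 3' UTRs and 18 in CDS. The best-ranked of these was in the 3' UTR of Rab11a, a gene of recycling endosomes (chr9:64715461-64715600, rank 54). Its signals in time order were 62.0, 78.1, 93.2 and 100.6. Mfap2, a microfibril gene, followed with a wide peak (chr4:141010713-141014401, rank 61), and then Mbd3, which encodes a subunit of the NuRD complex (chr10:80395098-80395537, rank 135). In the 3' UTR of the GTPase gene Rac1 (chr5:143506077-143506150, rank 281) the signals were 94.2, 179, 82.3 and 78.0 from E11.5 to E17.5. Emd, which encodes the nuclear envelope protein emerin, had 483, 680, 661 and 462 (chrX:74261374-74261515, 3' UTR, rank 662). Signals of different days were not put on 1 scale by any source used here, so these are values side by side. The genes in this paragraph were chosen after their values were seen.

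Gene lists were read against the 11.8% of all protein-coding genes with an exonic peak. The lists hold genes known from the cortex, whereas the 11.8% covers genes of every tissue, and no test was made. The highest shares were those of chromatin regulators with 30 of 47 (63.8%), pan-neuronal genes with 16 of 26 (61.5%) and RNA-binding and splicing genes with 23 of 41 (56.1%). The lowest were those of blood genes with 0 of 8, cytosolic ribosomal proteins with 2 of 79 (2.53%), interneuron genes with 1 of 12 (8.33%) and upper-layer regulators with 1 of 10. Over all genes with a peak the median coding sequence was 1377 nt. It was 5985 nt in the listed chromatin regulators and 540 nt in the listed ribosomal protein genes. In pan-neuronal and RNA-binding genes it was 1245 nt and 1350 nt. The part of transcript length in these shares was not tested. The 16 STAU2 cargo transcripts reported in other work had 2 (12.5%), close to the background.

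**Figure D5:**
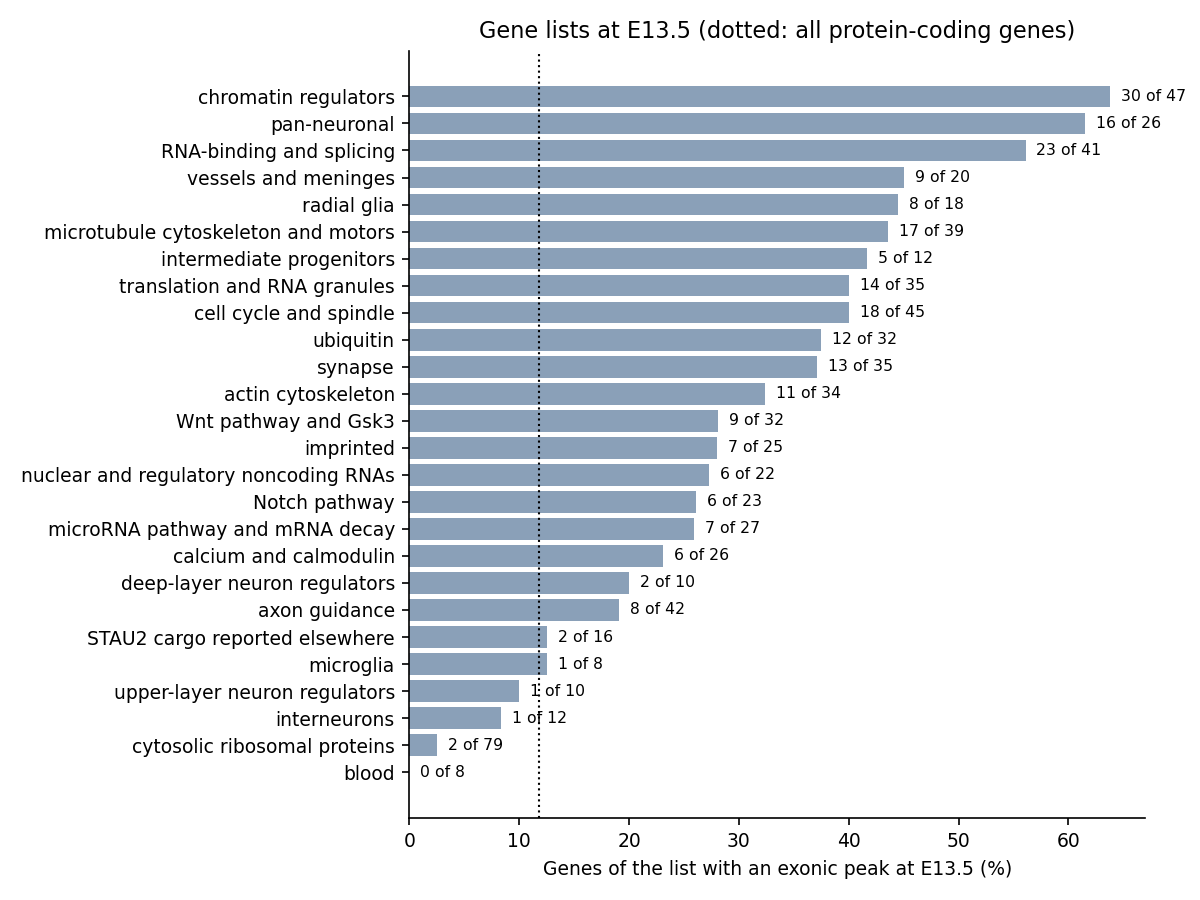
Share of the genes of each list with an exonic peak at E13.5 (horizontal axis, %), by list (vertical axis), with the count beside each bar. The dotted line marks the 11.8% of all protein-coding genes. Chromatin regulators (30 of 47) and pan-neuronal genes (16 of 26) stand highest, and cytosolic ribosomal proteins (2 of 79) and blood genes (0 of 8) lowest.

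Chromatin regulators carried their best-ranked peak in CDS more often than in the 3' UTR, 15 against 8, whereas over all 2582 genes the numbers were 783 and 1284. The coding sequence of the 30 genes had a median length of 5985 nt, against 1377 nt over all genes with a peak, and the part of length in this was not tested. After Kat6b, the best ranks were those of the remodeller gene Smarca4 (3' UTR, rank 130), Srcap (CDS, rank 204), Atrx (3' UTR, rank 572), the acetyltransferase gene Kat6a (CDS, rank 731) and the histone demethylase gene Kdm6b (CDS, rank 1315, 6 peaks). Cell cycle and spindle genes, 18 of 45, leaned the same way with 10 best-ranked peaks in CDS and 6 in 3' UTRs. The median length in these 18 was 1863 nt for the coding sequence and 482.5 nt for the 3' UTR. Over all genes with a peak the medians were 1377 nt and 922 nt, and the part of length was not tested here either. After Mki67 came Tpx2, a spindle assembly gene (rank 114), Tacc3 (CDS, rank 368), Aspm, a spindle pole gene of known microcephaly (CDS, rank 1138), Aurka (CDS, rank 1285) and Top2a (rank 1502). Exonic peaks of Aspm and Top2a were listed at E13.5 only, although 3.37% of the bases of the Top2a peak were exonic.

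RNA-binding and splicing genes had 12 best-ranked peaks in 3' UTRs and 5 in CDS, leaning as all 2582 genes did (1284 and 783). The median length in the listed genes was 1439 nt for the 3' UTR and 1350 nt for the coding sequence. The part of length was not tested. Celf3 stood at rank 138 (CDS), Nova1 at rank 253 (3' UTR), Srrm2 at rank 469, Celf2 at rank 838 (3' UTR) and Nova2 at rank 889 (3' UTR, 5 peaks). All 23 also had a peak on another day, as did 2080 of all 2582 genes. Genes of the microRNA pathway and of mRNA decay numbered 7 of 27 (25.9%), with the nonsense-mediated decay gene Upf3b (chrX:37102038-37102138, CDS, rank 88), the microprocessor gene Dgcr8 (3' UTR, rank 275), Dicer1 (CDS, rank 427), Dcp2 (rank 1617), Ago2 (rank 1865) and Cnot1 (rank 2845). Translation and RNA granule genes numbered 14 of 35 (40%). Larp1, which binds mRNAs of the translation machinery, led them (CDS, rank 244), ahead of Atxn2 (rank 385), Eif3a (rank 571), Eif4g2 (rank 703), Eif2ak4 and Pabpc1 (rank 1072, 5 peaks).

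Both Staufen genes were listed. Stau2 had 1 peak, in its 3' UTR (chr1:16344817-16344950, minus strand, rank 1687, signal 17.4, the authors' deposited p = 0.000424), and 53.7% of its bases were paired in the fold. Stau1 had 2 sense peaks in CDS (chr2:166955057-166955110, rank 3364, signal 32.9, and chr2:166949722-166949770, rank 3802, signal 37.6), beside the antisense peak given above. The 2 reported cargo transcripts with a peak were Ddx1, an RNA helicase gene (chr12:13219511-13219581, CDS, rank 1437), and Cplx1, of synaptic vesicle release (chr5:108518898-108518983, 3' UTR, rank 1607).

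Markers of the cortical cell types were represented unevenly. Of 18 radial glia genes 8 had a peak (44.4%): Mki67, Lhx2 (CDS, rank 834, signal 792), Sox9 (CDS, rank 1201), Top2a, Prom1 (3' UTR, rank 1699), Pax6 (3' UTR, rank 2403), Ccnd2 (3' UTR, rank 3665) and Emx2 (rank 4497, 7.80% of the peak in exons). Only Pax6 and Prom1 of these 8 belong to the planned set of radial glia markers. Its other members, Sox2, Nes, Vim, Hes1, Hes5, Slc1a3, Fabp7 and Hopx, are not among the 8. Mki67, Top2a and Ccnd2 are counted in the cell cycle list too, and 3.37% of the Top2a peak was exonic. Of 12 intermediate progenitor genes 5 had a peak. Eomes, the transcription factor TBR2 that defines these cells, had 3 peaks, the best-ranked spanning an exon and introns (chr9:118482271-118484308, rank 39, signal 65.0). The others were Gadd45g (rank 805), Neurog1 (rank 1171), Rcor2 (rank 1223) and Hes6 (rank 2147). Deep-layer regulators had 2 of 10, Fezf2 (rank 677, 5.43% of the peak in exons) and Ldb2 (3' UTR, rank 3677), and upper-layer regulators had only Lhx2. The interneuron list had only the neuropeptide gene Sst (3' UTR, rank 861), and the microglia list only Csf1r (3' UTR, rank 1400). A listed peak does not say how many cells hold the transcript, and a gene without one may still be expressed or bound. Fewer cells of a type and less RNA per cell cannot be told apart in pooled tissue.

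Pan-neuronal genes had 10 of their 16 best-ranked peaks in 3' UTRs. The microtubule regulator gene Stmn1 stood at rank 314 with a signal of 679, over introns and exons. Ank2, an ankyrin gene of the axonal membrane, followed at rank 391, the growth cone gene Basp1 at rank 435 with a signal of 953, the SNARE gene Snap25 at rank 825, Neurod6 at rank 1558 and the tubulin gene Tubb2a at rank 1655 with a signal of 975. Tubb2a and Tubb2b are near-identical in sequence, so reads may be shared between their CDS peaks. Microtubule and motor genes numbered 17 of 39 (43.6%), led by the dynein regulator gene Ndel1 (3' UTR, rank 261, 3 peaks), which had an exonic peak at E13.5 only. Camsap1 (rank 1106) and Dync1h1 (rank 1594) followed Stmn1 in this list. Actin genes numbered 11 of 34 (32.4%), with Spire1, an actin nucleator gene (3' UTR, rank 86), Rac1, the capping gene Capzb (3' UTR, rank 374), Wasf1 (CDS, rank 816), Tln1 (rank 1565) and Evl (rank 2054, 1.10% of the peak in exons). Synaptic genes numbered 13 of 35 (37.1%), among them the glutamate receptor gene Gria2 (CDS, rank 232), the scaffold gene Shank1 (CDS, rank 795), Snap25, Syn1 (3' UTR, rank 1001) and Vamp2 (3' UTR, rank 1382).

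Axon guidance genes, 8 of 42 (19.05%), had 7 of their best-ranked peaks in 3' UTRs, and 4 of the 8 were listed at E13.5 only, against 19.4% of all E13.5 genes: Sema3a, the semaphorin receptor gene Plxna2 (3' UTR, rank 580, signal 97.3), the Slit receptor gene Robo2 (3' UTR, rank 3580) and Sema4d (3' UTR, rank 4217). Sema4d lies outside the naming rule and was chosen after its values were seen. Sema5a (rank 165), Unc5a (rank 2470) and Sema6a (CDS, rank 3030) were shared with E15.5. Notch pathway genes numbered 6 of 23 (26.1%): Notch3, a receptor (CDS, rank 215), Hes6, the Numb relative Numbl (rank 3001), the ligand gene Dll3 (rank 3188), Maml1 (rank 3349) and the DNA-binding effector gene Rbpj (rank 5368). Wnt pathway genes numbered 9 of 32 (28.1%), with the coreceptor gene Lrp6 (rank 274), the kinase gene Gsk3a (3' UTR, rank 349, signal 94.6), Tcf7l1 (rank 631), Tcf7l2 (rank 1115), Dvl3 (rank 1141) and the secreted antagonist gene Sfrp1 (rank 1236).

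Ubiquitin genes numbered 12 of 32 (37.5%), led by the NEDD8-conjugating gene Ube2m (chr7:13036593-13037713, rank 24, signal 65.2), Rnf130, Mdm4 (rank 431), Nedd4 (rank 1193), Herc2 (rank 1417) and Rnf165 (rank 1460). Calcium and calmodulin genes numbered 6 of 26 (23.1%), with the calcineurin subunit gene Ppp3r1 (3' UTR, rank 383), the channel gene Cacna1e (rank 652), Nrgn, which binds calmodulin (rank 716), Atp2b2 (rank 1799), Ppp3cc (rank 2915) and Ppp3cb (rank 5627). Imprinted genes numbered 7 of 25 (28.0%). The best-ranked 6 were Plagl1, whose best-ranked peak had 0.419% of its bases in exons (rank 715), Igf2 (rank 1180), Peg13 (rank 1443), Cdkn1c (rank 1719), Zrsr1 (rank 2714) and Rian (rank 3128). Regulatory noncoding RNAs other than pseudogenes included Snhg1 (rank 637), Pantr1 (rank 3556, signal 372) and Snhg12 (rank 3923). The ribosomal protein genes with a peak were Rps3 (rank 3038) and Rps26 (rank 3863). In the vessel and meninges list the 9 were Sparc, Col4a1 (rank 183), Col1a2 (rank 364), Igf2, Col3a1 (rank 1407), Col1a1 (rank 2104), Vtn (rank 3219), Dcn (rank 4612) and Col4a2 (rank 5090), 7 of them in 3' UTRs, and all but Col4a1 and Igf2 were listed at E13.5 only, against 19.4% of all E13.5 genes.

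The peaks were close to their own surroundings in base composition and predicted folding. Each of 2495 peaks of at most 300 nt within 1 exon was set beside the stretches of the same length just upstream and downstream on the spliced transcript. The median GC content was 50% in peaks and 49% in flanks, and the median difference, peak minus flanks, was 0.45 percentage points (95% interval of the median 0 to 0.901, quartiles -4.24 and 5.20). The minimum free energy per 100 nt, where a lower value means a more stable fold, had a median of -19.4 kcal/mol in peaks and -20.1 kcal/mol in flanks, a median difference of 0.45 (0.0943 to 0.845, quartiles -4.84 and 6). It was 0.96 against the upstream flank alone (0.417 to 1.45). Against the downstream flank alone it was -0.11, with an interval that holds 0 (-0.427 to 0.375). Of the 2495 peaks, 1187 (47.6%) folded more stably than the mean of their flanks. In 3' UTR peaks the median difference in energy was 0 (n = 1496), with -0.80 against the downstream flank alone (-1.4 to -0.2). In CDS peaks the median difference from both flanks was 1.38 kcal/mol per 100 nt (0.481 to 1.90, n = 973), a less stable fold in the peak. A fold of the peak alone leaves out pairing with more distant parts of the transcript.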

How the data were processed

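RNA from STAU2 RIP and from input was sequenced at E13.5, with 3 libraries each. Per the labels' protocols, purification included DNase, and the ScriptSeq low-input kit was used. Coordinates are in mm10, and the submitters' processing notes list Cufflinks 2.2.1, bedtools 2.17.0, TopHat2 2.0.9 and TopHat, with no role for any. No source used here gives the peak caller or its test. Each peak in the deposited lists has a score, a signal, a p-value and a q-value from the authors. The score was not used, the signal has no stated scale, and the p-values served only to rank peaks.

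Peaks were assigned by strand to GENCODE vM21 models (GRCm38) with at least 1 bp of overlap, and their part was read at the midpoint with CDS before 3' UTR before 5' UTR over protein-coding transcripts. Candidate numbers came from the q-values: in 89.3% and 90.0% of the minus- and plus-strand peaks, the q-value times rank over p gave 1 number of regions to within 0.5, and the minus-strand ranks left room for 2 better-ranked regions, not used here. Transcript sequences were folded with RNAfold 2.7.2. Of 2110 coding transcripts read, 2084 had a start codon where the CDS was mapped, and the part assignment was tested on simulated gene models. Genes were named by fixed rules: the best-ranked exonic peaks, those per part and per list, the 15 best-ranked genes listed at E13.5 only, the densest genes, the widest peaks and the Staufen genes, with exceptions stated where they occur. Some genes that the rules select are not reported here. The members and the 26 gene lists were chosen with earlier results of these data known. Alternatives changed the overlap, the q limit, the isoform, the width limit and the flank.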

Additional observations from a re-analysis of the deposited data

How the results depend on the processing

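Of 30 alternative values over 8 results, 13 stayed within 1.5 times the count or within the 95% interval of the share or median. At q at or below 0.001 a single peak was left, outside genes, so the gene counts were 0 and 0, the intronic share 0%, and the 3' UTR share had no value. At q at or below 0.005, a limit chosen after seeing the data, 85 peaks gave 44 genes, 5 at E13.5 only, a 3' UTR share of 63.2% and an intronic share of 45.9%. The better-ranked 50% of peaks gave 1525 genes. The 3' UTR share was 42.6% by any overlap and 58.3% with the best-ranked peak of each gene. The intronic share was 24.5% without the 20 densest genes and 31.1% with peaks of the same gene, signal and p counted once, also chosen after seeing the data. Overlap with another day was 19.98% when at least 50% of the peak had to be covered. The folding difference was 0.96 against the upstream flank and -0.11 against the downstream flank, the latter with an interval that holds 0 (-0.427 to 0.375). It was 0 in 3' UTR and 1.38 in CDS peaks. The cause of these moves was not tested. No paired analysis was possible because the lists hold no values per library, and no replicate could be left out for the same reason.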
